A study of Mus musculus with 2 samples.

Results

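T-box genes encode transcription factors that share one DNA-binding domain, the T-box, and the 8 described here are Tbx1, Tbx2, Tbx3, Tbx4, Tbx5, Tbx15, Tbx18 and Tbx20. They were given by name and looked up by gene identifier in the deposited gene tables, where all 8 were found among 43346 Ensembl genes. In stomach of mouse embryos Tbx3 and Tbx2 were the members above 1 TPM (the share of a library's transcripts, corrected for length) in both libraries, Tbx3 at 15.48 ± 0.594 TPM and Tbx2 at 5.14 ± 0.354 TPM (mean ± SD, n = 2). The other 6 members averaged between 0.13 and 0.845 TPM.

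The study sequenced total RNA from whole stomachs of healthy B6NCrl embryos at embryonic day 15.5, with no treatment or mutant allele named in the labels. It has 1 group of 2 biological replicates, and both are pools that mix male and female embryos, 78 in replicate 1 and 62 in replicate 2. Each library started from 10 ng of RNA longer than 200 bases with added spike-in RNA. The tables assigned 43209506 counts to genes in replicate 1 and 44257493 in replicate 2. No condition was compared, so the comparisons are between members and between the pools. In pooled whole organ RNA, fewer cells that express a gene and less RNA per cell cannot be told apart.

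T-box factors bind a short DNA element through the T-box and then activate or repress the genes beside it, often together with GATA, NKX and HAND factors in the heart and with Groucho-type (TLE) co-repressors. Tbx2 and Tbx3 are mostly repressors and are known from heart, limb, mammary gland and lung. Tbx4 and Tbx5 are known from hindlimb, forelimb, heart and lung mesenchyme, Tbx1 from pharyngeal arches and the heart outflow tract, Tbx15 and Tbx18 from mesoderm-derived mesenchyme, and Tbx20 from heart muscle. Many of the organs in which these genes are known lie near the stomach or share the mesodermal origin of its mesenchyme.

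How alike the members are decides whether reads could be divided wrongly among them, so the most conserved stretch of their coding sequences is shown. It is the ungapped window of 60 bases with the most shared bases in an alignment of the 8 coding sequences. Capitals mark the 34 positions that are the same in all 8 members. Each stretch is written 5′ to 3′ on the coding strand from the transcript models of GENCODE M21, and each spans an intron in the genome (build mm10).
Tbx1: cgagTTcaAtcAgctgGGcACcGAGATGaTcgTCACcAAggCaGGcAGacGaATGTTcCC
Tbx2: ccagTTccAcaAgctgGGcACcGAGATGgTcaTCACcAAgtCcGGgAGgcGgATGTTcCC
Tbx3: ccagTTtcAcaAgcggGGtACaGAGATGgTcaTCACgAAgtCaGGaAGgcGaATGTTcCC
Tbx4: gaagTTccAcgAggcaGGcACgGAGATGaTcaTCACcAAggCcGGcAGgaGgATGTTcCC
Tbx5: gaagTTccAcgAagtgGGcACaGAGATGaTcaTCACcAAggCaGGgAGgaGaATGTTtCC
Tbx15: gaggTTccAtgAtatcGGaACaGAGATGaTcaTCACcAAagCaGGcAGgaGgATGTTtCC
Tbx18: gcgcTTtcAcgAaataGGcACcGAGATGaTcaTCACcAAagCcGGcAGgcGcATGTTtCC
Tbx20: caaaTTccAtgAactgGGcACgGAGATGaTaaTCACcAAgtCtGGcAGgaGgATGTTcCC

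Across the 28 pairs of members, 41 to 52 of the 60 bases were the same. The pairs Tbx2 with Tbx3 and Tbx4 with Tbx5 shared 52 each, followed by Tbx5 with Tbx15 at 51 and Tbx4 with Tbx20 at 50. Over the aligned parts of the coding sequences Tbx2 with Tbx3, Tbx4 with Tbx5 and Tbx15 with Tbx18 stood highest, at 63.5%, 63.1% and 62.5% identity, and the other pairs lay between 44.6% and 53.8%. No member had a stretch of 100 bases, the length that the deposited effective lengths imply for a read, in common with another T-box gene. Such stretches were shared with overlapping genes in 2 members, 17 of the 6710 stretches of Tbx3 and 736 of the 4618 of Tbx18 (15.9%). The search took exact matches in the M21 models, whereas the deposited tables used annotation M4. Reads aligned with mismatches were not covered by it.

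**Figure D1:**
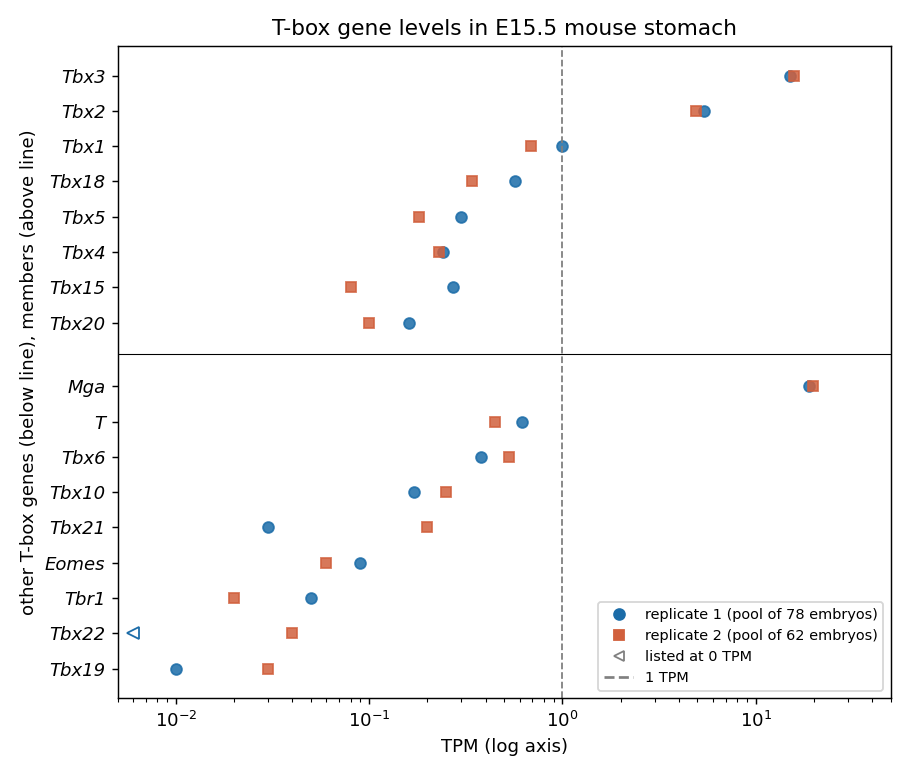
Level of each T-box gene in TPM on a log axis, with circles for replicate 1 and squares for replicate 2, the 8 members above the line and the 9 other T-box genes below it, and the dashed line at 1 TPM. Tbx3, Tbx2 and Mga lie to the right of the dashed line in both libraries, and the open triangle marks Tbx22, listed at 0 TPM in replicate 1.

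Tbx3, a repressor whose loss in humans gives ulnar-mammary syndrome, had the highest level of the 8. Its level was 15.06 TPM in replicate 1 and 15.90 TPM in replicate 2, from 2032.65 and 2257.12 expected counts. The gene lies at chr5:119670669-119684724 on the plus strand. Its mean level was above that of 65.4% of the 21474 protein-coding genes, so it stood in the upper middle of the distribution and not among the abundant transcripts of the organ. Tbx2, its closest relative in sequence, lies at chr11:85832551-85841948 on the plus strand and was second. Tbx2 was at 5.39 and 4.89 TPM, from 587 and 535 counts, above 48.6% of protein-coding genes. The difference between the means of Tbx3 and Tbx2 was 10.3 TPM, against a larger SD of 0.594, and the values of the libraries did not overlap.

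Detection was set at 1 TPM or more in both libraries, and 2 of the 8 members passed it. Of all genes 35.9% passed, and of protein-coding genes 64.5%. The 6 members that did not pass were nevertheless counted in both libraries, with 8 to 80.33 counts each. Tbx1 came nearest to the limit, at exactly 1.00 TPM in replicate 1 and 0.69 TPM in replicate 2.

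Tbx1, which lies in the segment lost in DiGeorge syndrome in humans and patterns the pharyngeal arches, is at chr16:18580979-18590671 on the minus strand and was read 52 and 36 times. Its mean level was 0.845 ± 0.219 TPM (SD, n = 2), between Tbx2 and Tbx18 in both libraries. Tbx18 marks the mesenchyme of the ureter, the epicardium and the sinus node, and lies at chr9:87702800-87731260 on the minus strand. It was at 0.57 and 0.34 TPM, from 80.33 and 47.86 counts. The difference between Tbx1 and Tbx18 was 0.39 TPM against a larger SD of 0.219. This order holds per length of transcript only, because Tbx18 has the longer model and the higher count.

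Tbx18 is the member whose reads are least certain. The gene D030062O11Rik lies on the opposite strand at chr9:87729285-87732090 and overlaps it, and held 3.67 and 5.14 counts. Since the strand setting of the quantification is not given in the sources used here, reads of the 2 genes cannot be told apart in the shared 15.9% of stretches.

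Tbx5, Tbx4, Tbx15 and Tbx20 formed the low end of the family. Tbx5, which is needed for heart and forelimb, lies at chr5:119832668-119885219 on the plus strand and was at 0.30 and 0.18 TPM, from 35 and 22 counts. Tbx4, its relative known from hindlimb and lung mesenchyme, lies at chr11:85886422-85916097 on the plus strand and was at 0.24 and 0.23 TPM, from 22 and 21 counts. Tbx20, a regulator of heart muscle, lies at chr9:24718138-24774303 on the minus strand and was at 0.16 and 0.10 TPM, from 31 and 19 counts. The order among these genes was not the same in both libraries, and the ranges of each pair of neighbours in the order overlapped. Above them the order Tbx3, Tbx2, Tbx1, Tbx18 was the same in both libraries.

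Tbx15, known from skeleton, muscle and fat, lies at chr3:99240381-99354259 on the plus strand and was the gene with the fewest reads, 8 counts in replicate 1 and 9 in replicate 2. Its TPM nevertheless read 0.27 and 0.08. In replicate 1 the quantification put 1.32 of the counts on a short model, Tbx15-203 (333 bases), which gave that model 0.18 TPM, whereas in replicate 2 this model was at 0. The effective length used for the gene was therefore 971.92 bases in replicate 1 and 3448.48 bases in replicate 2. The 95% Poisson intervals of these counts were 3.45 to 15.8 and 4.12 to 17.1, and overlapped. The level also depends on the estimate used, since the posterior mean TPM of Tbx15 averaged 0.395 and placed the gene above Tbx5 and Tbx4. These intervals, as all counting intervals here, cover counting error only.

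**Figure D2:**
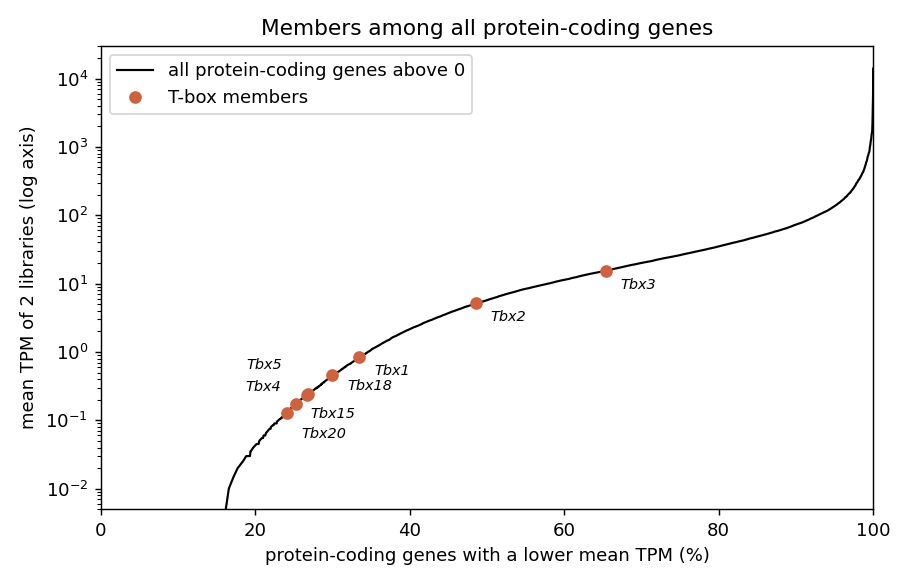
Mean TPM of the 2 libraries on a log axis against the percentage of protein-coding genes with a lower mean, with all protein-coding genes above 0 as the line and the 8 members as points. Tbx3 lies at 65.4%, Tbx2 at 48.6%, and the other 6 between 24.1% and 33.5%.

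Set against one another, Tbx3 made up 65.51% of the summed TPM of the 8 members in replicate 1 and 70.95% in replicate 2, and Tbx2 made up 23.44% and 21.82%. Tbx1 followed with 4.35% and 3.079%. The sum over the 8 members was 22.99 and 22.41 TPM in the libraries, and the 5 lowest members together gave 1.54 and 0.93 TPM of it.

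In the genome the members lie in part as neighbours. Tbx3 and Tbx5 sit 147943 bases apart on chromosome 5, and Tbx2 and Tbx4 sit 44473 bases apart on chromosome 11, both pairs on the plus strand. In each pair the gene of the Tbx2 and Tbx3 branch was the higher one. Tbx3 was 50.2-fold above Tbx5 in replicate 1 and 88.33-fold in replicate 2, a mean log2 ratio of TPM of 6.06 ± 0.577 (SD, n = 2). Tbx2 was 22.46-fold above Tbx4 in replicate 1 and 21.26-fold in replicate 2, a mean log2 ratio of 4.45 ± 0.0559. An exact permutation test over the 2 values of a ratio cannot reach significance, so the ratios are given with their SD and no test.

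The antisense neighbour of Tbx3 was measured as well. Tbx3os1, a noncoding gene that overlaps the start of Tbx3 on the opposite strand at chr5:119570130-119671365, held 25.35 and 27.88 counts, or 2.41 and 3.65 TPM. Its effective length was 340.86 bases in replicate 1 and 246.57 bases in replicate 2. By counts its log2 ratio of replicate 2 over replicate 1 was 0.12. Its 17 shared stretches are 0.253% of those of Tbx3, and their share of the stretches of Tbx3os1 was not computed. Reads of the 2 genes cannot be told apart in these stretches, since the strand setting is not given. The part of Tbx3 reads in the low counts of Tbx3os1 was not tested. Tbx3os2, 371 bases beyond the other end of Tbx3, held 3 and 2 counts. Beside Tbx2, the noncoding 2610027K06Rik starts 328 bases away on the opposite strand and was at 2.43 and 1.75 TPM, below Tbx2 and Tbx3 and above the other 6 members in both libraries.

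Isoform shares were read where a gene had 100 or more counts in both libraries, which Tbx3 and Tbx2 reached, and Tbx2 has a single model. Tbx3 has 3 coding models, and 1 of them, Tbx3-201, holds an extra coding exon within the T-box. The exon is the third of that model, at chr5:119675243-119675302, and its 60 bases add 20 codons without a shift of the reading frame. The sequence around the exon is shown because it sets Tbx3-201 apart from Tbx3-202 and Tbx3-203, which both lack the exon and differ elsewhere. Capitals mark the exon and lower case the 20 bases on each side, which come from the exons at chr5:119674026-119674293 and chr5:119675558-119675704.
With the exon: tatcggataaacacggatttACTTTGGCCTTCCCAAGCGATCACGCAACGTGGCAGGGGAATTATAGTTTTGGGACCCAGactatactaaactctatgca
Without the exon: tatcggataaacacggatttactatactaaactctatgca

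The model without the exon named Tbx3-203 was the main form, with 50.68% of the TPM of Tbx3 in replicate 1 and 49.93% in replicate 2 (50.3% ± 0.53, SD, n = 2). Tbx3-201 took 23.51% and 36.29% (29.9% ± 9.04), and Tbx3-202, which also lacks the exon, took 16.94% and 10.08%. Both pools thus kept Tbx3-203 as the main form, while the shares of the other coding models differed in opposite directions.

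Among the coding models alone, the form with the exon made up 25.8% of TPM in replicate 1 and 37.7% in replicate 2 (31.8% ± 8.41, SD, n = 2). The level with the exon was 3.54 and 5.77 TPM, a 1.63-fold difference, and the level without it was 10.18 and 9.54 TPM. The models also differ at their 5′ ends, and the tables hold no count of junction reads, so the share is an estimate from the whole models and not a measure of the junction. A retained-intron model, Tbx3-204, took 8.87% and 3.70% of the TPM. These shares rest on 25.82 and 11.43 counts on a short model of 725 bases. Tbx3-205 was listed at 0 in both libraries.

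**Figure D3:**
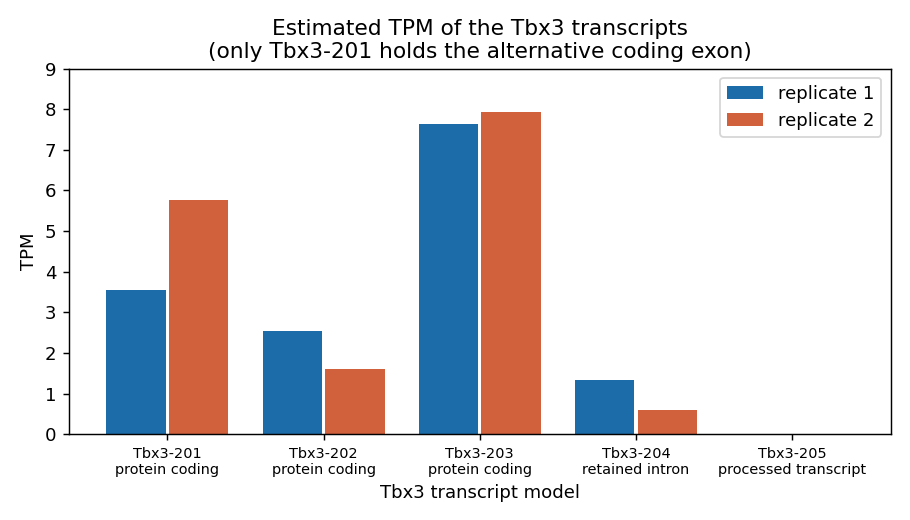
Estimated TPM of the 5 Tbx3 transcript models, as bars from 0 for replicate 1 and replicate 2. Tbx3-203 is the highest in both libraries at 7.63 and 7.94 TPM, and Tbx3-201, the model with the extra exon, is at 3.54 and 5.77 TPM.

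The remaining members had too few counts for shares to be read. All counts of Tbx4 fell on Tbx4-201 in replicate 1, whereas in replicate 2 the estimate put 7.42 on Tbx4-201 and 12.99 on Tbx4-202. All counts of Tbx20 fell on Tbx20-201 and all of Tbx18 on Tbx18-201, in both libraries. The shares depend on the estimate used. By posterior mean TPM, Tbx18-202 took 29.39% in replicate 1 and 33.45% in replicate 2, and Tbx20-202 took 19.75% and 30.92%. In replicate 1 that estimate gave Tbx4-201 a share of 44.53%. Tbx1 and Tbx5 have 1 model each.

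The pools were then compared, gene by gene, with an exact binomial test (two-sided) of the rounded counts, given TMM library sizes. The p-values were adjusted by the Benjamini-Hochberg method over the 20918 genes that reached 10 counts when both libraries were added. All 8 members passed this filter. A gene was called at an adjusted p below 0.05 and a difference of 2-fold or more, and 6.72% of the genes were called. None of the 8 members was called. Without the limit on size, 2 members (Tbx3 and Tbx18) had an adjusted p below 0.05, against 32% of all genes tested, and 3 (Tbx2 as well) had an unadjusted p below 0.05, against 40.1%. With a minimum of 1 count in place of 10, the adjusted p of Tbx3 was 0.0554 in the exact binomial test, which leaves Tbx18 alone below 0.05. The edgeR exact test with a common dispersion gave 0 members at an unadjusted or adjusted p below 0.05, while 687 of the genes (3.28%) were called by it. That dispersion (0.03885) was estimated from the same 2 libraries taken as 1 group. The difference under test is thus part of the spread it is set against, and no independent estimate of the spread between pools exists. These tests compare 2 libraries and no conditions.

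By normalized counts Tbx18 had the ratio farthest from 0. Its log2 ratio of replicate 2 over replicate 1 was -0.77 (95% counting interval -1.33 to -0.25), with an adjusted p of 0.0134 in the exact binomial test. Tbx3 differed by a log2 ratio of 0.11 (0.021 to 0.196, adjusted p = 0.0446 in the exact binomial test), so its interval leaves out a difference of 2-fold in either direction. The same holds for Tbx2, at -0.18 (-0.35 to -0.0046, adjusted p = 0.109 in the exact binomial test). Directions and sizes are relative to the TMM scale. Library sizes from spike-in totals move every log2 ratio by -0.68, which turns Tbx3 to -0.57 and Tbx15 to -0.56 and puts Tbx2 at -0.86 with an interval (-1.03 to -0.68) that no longer leaves out 2-fold. With them 4 of the 8 members (Tbx1, Tbx5, Tbx18 and Tbx20) were called lower in replicate 2, against 16.5% of all genes tested.

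The intervals of the rare members were wide. Tbx1 had a log2 ratio of -0.57 (-1.23 to 0.068), Tbx5 of -0.70 (-1.55 to 0.098) and Tbx20 of -0.73 (-1.65 to 0.12), and each includes both no difference and a difference of 2-fold. Tbx4 was at -0.11 (-1.04 to 0.82). Tbx15 was at 0.12 (-1.42 to 1.70) by counts, but at -1.76 by the ratio of its TPM, which rests on the effective lengths given above. In all, 6 of the 8 members were lower in replicate 2, with a median log2 ratio of -0.371, against 50.6% of all genes tested and their median of -0.00305. Among the genes with 20 to 200 counts in the sum, a range that holds 5 of the members, 60.1% were lower in replicate 2.

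**Figure D4:**
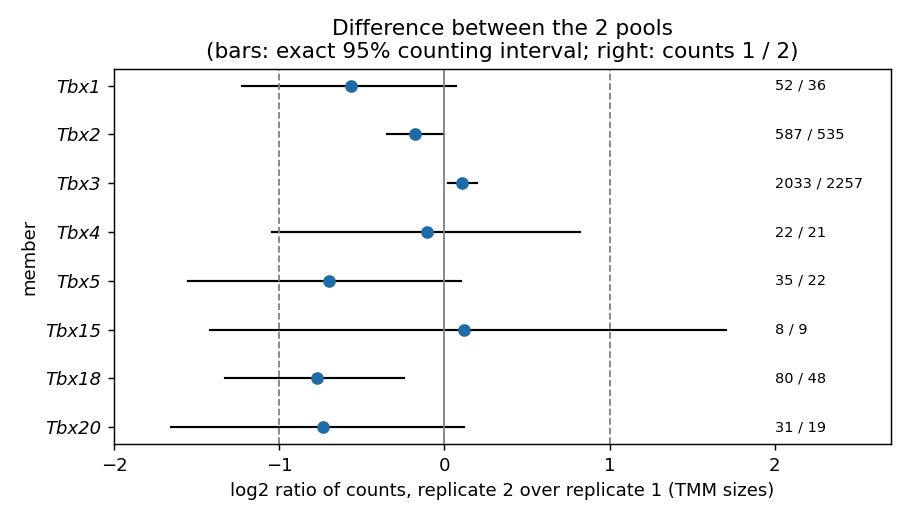
Log2 ratio of counts on the TMM scale, replicate 2 over replicate 1, for the 8 members with exact 95% counting intervals, and the counts of both libraries at the right. The dashed lines mark a difference of 2-fold, and the intervals of Tbx2 and Tbx3 lie within them while those of the other 6 reach past at least 1 line.

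Markers of the organ and of its neighbours were read beside these values. The 7 stomach markers were all detected and summed to 1266 TPM in replicate 1 and 1250 TPM in replicate 2, with Krt8 (keratin of simple epithelium) at 821.92 and 824.91, Barx1 (the regulator of stomach mesenchyme) at 141.97 and 166.36 and Tff1 (a mucosal peptide) at 163.54 and 123.95 TPM. All 8 markers of gastric mesenchyme (sums of 578.9 and 605.3 TPM), all 8 of smooth muscle (3473 and 3514) and all 6 of pericytes (118.8 and 146.9) were detected, and none of them was called. Of the 7 markers of mesothelium, the outer lining in which Wt1 and Aldh1a2 are known, all were detected and none called, and they summed to 215.5 and 185.5 TPM. All 6 nerve markers were detected, with none called and sums of 181.1 and 199.2 TPM.

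Markers of liver and of forestomach epithelium were lower in replicate 2. Of 8 liver markers 6 were called lower in replicate 2 and the sum was 2258 TPM in replicate 1 against 1097 TPM in the other pool. Of 7 markers of forestomach epithelium 3 were called lower, with sums of 2636 and 1421 TPM. Of all genes tested 5.91% were called lower. Markers of exocrine pancreas went the other way in sum, 6761 and 9071 TPM, with 0 of 7 called. Of the 10 heart muscle markers 9 were detected. Their list summed to 105.2 and 137.4 TPM, while its median was 4.27 TPM in replicate 1 and 3.36 TPM in replicate 2. The highest were Actc1 at 43.60 and 71.54 TPM, Myl7 at 20.65 and 25.02 TPM and Tnnt2 at 15.27 and 21.05 TPM. The 1 not detected was the heart myosin gene Myh6, at 0.78 and 0.61 TPM. Myl2 was called lower and Ttn called higher in replicate 2 by the exact binomial test. Of the 6 lung markers Sftpc alone was detected, at 5.28 and 3.48 TPM, and Nkx2-1, the regulator of lung identity, was at 0.09 and 0.06 TPM. By the edgeR exact test the adjusted p was 0.218 for Myl2, 0.161 for Ttn and 0.259 for Krt13, 1 of the 3 forestomach genes, so these were not called by it. Gonad and adrenal markers were detected in 2 of 5, with sums of 6.86 and 5.65 TPM. The part of such RNA in the levels of Tbx5, Tbx20, Tbx4 and Tbx18 was not tested.

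Of the 9 other T-box genes of the mouse, 1 was detected. Mga, a large protein that joins a T-box to a second DNA-binding domain and acts in a repressor complex, was at 19.00 and 19.82 TPM, from 4027 and 3991 counts, and so stood above Tbx3 in both libraries. With it the 17 T-box genes summed to 43.34 and 43.81 TPM. T (brachyury, of early mesoderm) was at 0.62 and 0.45 TPM, and Tbx6, of the presomitic mesoderm, at 0.38 and 0.53 TPM. Tbx10 was at 0.17 and 0.25 TPM.

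The T-box genes of immune cells and cortex were lower still. Eomes was at 0.09 and 0.06 TPM and Tbr1 at 0.05 and 0.02 TPM. Tbx19, the pituitary factor, held 1 and 2 counts, and Tbx22, known from the palate, 0 and 2. Tbx21, which directs type I helper T cells, was called, and was the only one of the 6 that passed the filter on counts to be called. It held 2 counts in replicate 1 and 15 in replicate 2, a log2 ratio of 2.59 with a counting interval of 0.76 to 6.04 and an adjusted p of 0.00993 in the exact binomial test. The edgeR exact test gave it an adjusted p of 0.173. Of all genes tested, 0.808% were called higher in replicate 2.

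Factors known to act with T-box proteins were higher in level than most members. Of 14 such partners and co-repressors 13 were detected, all but Sall4, and their median level was 14.22 TPM in replicate 1 and 13.27 TPM in replicate 2. The highest were Gata4, at 29.13 and 44.28 TPM, the LIM-homeodomain gene Isl1, at 24.34 and 34.68 TPM, and the co-repressor gene Tle2, at 23.68 and 28.95 TPM. The heart partner Nkx2-5, which is also a gene of the pyloric mesenchyme, was at 7.47 and 12.55 TPM.

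Of 11 genes known to act upstream or downstream of T-box factors, 9 were detected, all but Fgf8 and Cdkn2a. The highest were Cdkn1a, a cell cycle inhibitor that Tbx2 and Tbx3 are known to repress, at 93.86 and 84.06 TPM, Bmp4, at 42.92 and 44.51 TPM, and Gja5, a connexin gene, at 10.37 and 11.27 TPM. Cdkn2a, another known target of that repression, held 0 and 1 counts. Fgf10, a growth factor gene linked with Tbx4 and Tbx5 in limb and lung, was at 4.95 and 7.73 TPM. Of the 25 genes on these lists 23 passed the filter on counts, and 0 of the 23 were called between the pools, against 6.72% of all genes tested. Without the limit on size, 12 of the 23 had an adjusted p below 0.05 in the exact binomial test, against 32% of all genes, and the same number had an unadjusted p below 0.05, while the edgeR exact test gave 0 by either p. The exact binomial p depends on the number of counts as well as on the ratio. Of the 25 genes 22 were detected, against 35.9% of all genes, and no background with like counts was computed. The median log2 ratio of the 23 was 0.0188.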

How the data were processed

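The authors deposited a gene and a transcript table per library, made from alignments to the transcriptome (build mm10, annotation M4), as the accompanying text file says. The aligner, quantification program and strand setting are not given in the sources used here. Per the file headers, expected counts divide reads matching several features. The authors scaled TPM and FPKM by effective length, over all features. IsoPct is a transcript's percent of its gene's TPM in the deposited tables. Spike-ins took 4.007% and 6.508% of TPM and were left out of library sizes.

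Symbols and coordinates came from GENCODE M21 (42462 of 43346 genes matched). Expected counts were rounded for tests. TMM sizes came from edgeR 4.0.16, DESeq2 1.42.0 gave alternative size factors, and binomial tests used SciPy 1.17.1. The binomial test was tried on simulated counts with counting error only, which cannot show how it behaves with spread between pools. Ratios used a prior count of 0.5. Coding sequences were aligned with MAFFT 7.526.

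Named genes were all T-box genes and the quantified genes overlapping a member. The 3 highest genes were named for the stomach and heart muscle lists, the partners and co-repressors, and the genes upstream or downstream of T-box factors. A few others were chosen after their values were seen. The other lists of cell type markers are given mostly by counts and sums, and most of their called genes are not named. The members and lists were chosen with earlier results of these data known. The replicates are biological pools. The exact binomial p-values set their difference against counting error alone and hold no estimate of the spread between pools. The edgeR exact test takes its spread from that same difference between the 2 libraries.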

Additional observations from a re-analysis of the deposited data

How the results depend on the processing

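With library sizes from spike-in totals, which shift all log2 ratios by -0.68, 4 members were called lower in replicate 2 instead of 0: Tbx1 at a log2 ratio of -1.247, Tbx5 at -1.38, Tbx18 at -1.453 and Tbx20 at -1.414. On that scale Tbx3 turned to -0.5715 and Tbx15 to -0.5618, and the ratio of TPM put Tbx15 at -1.755. The count over all genes, 1406, became 3504 with spike-in totals, 568 with a minimum of 100 counts and 687 with the edgeR exact test. At 5 TPM 1 member was detected. In CPM without length correction Tbx3 made up 73.98% of the members' sum (68.23% in TPM), and the log2 ratio of Tbx2 to Tbx4 was 4.704, with 4.252 from posterior mean TPM. Leaving out a library gave 2 to 3 members detected (3 without replicate 2), a Tbx3 share of 65.51% to 70.95%, log2 ratios of 5.65 to 6.465 for Tbx3 to Tbx5 and 4.41 to 4.489 for Tbx2 to Tbx4, and a Tbx3-201 share of 23.51% to 36.29%. DESeq2 sizes and library totals called 0 members. The changes with spike-in totals follow from the shift of -0.68, and the Tbx15 ratio of TPM rests on its effective lengths. Values without a library are those of the other library. The cause of the spike-in shift was not tested. No paired analysis was possible because the series has 1 group, so replicate numbers pair nothing. Depth limits the 6 members with under 100 counts in each library.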
